A study of Mus musculus with 12 samples.

Results

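The 10 genes chosen here, of the Nogo receptor complex and of the intracellular partners of the p75 neurotrophin receptor (p75NTR), were followed across 4 genotypes of mouse hippocampus. They were the rows of the deposited table of 24421 genes with listed symbols, and the list was chosen with earlier results of these data known. Described below are Rtn4, Rtn4r, Rtn4rl1, Rtn4rl2, Lingo1, Rhoa, Maged1, Bex1 and Traf6, and counts over all members include a further gene that is not described. All 10 members were in the table and 9 passed the filter on low counts, the exception being Rtn4rl2. The 12 libraries were made from 2-month-old mice that had received BrdU, a thymidine analogue taken up by dividing cells, with 3 libraries each of WT, 5xFAD, p75NTRko and the 5xFAD/p75NTRko cross, so that BrdU was shared by all groups. 5xFAD mice carry mutant human transgenes driven by a neuronal Thy1 promoter. The knockout allele, its deleted part, the strain and the number of animals behind a library are not given in the sources used here, so the p-values below measure the spread between libraries labelled as biological replicates. Each count is a read from the 3′ end of a polyadenylated transcript, and levels are given as CPM, gene counts scaled to library size, which for such tags carry no gene-length term.

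p75NTR has no catalytic domain of its own and signals through partners. At the neuronal surface it can join the GPI-anchored Nogo receptor Rtn4r and the transmembrane protein Lingo1 in a complex that binds myelin inhibitors such as Nogo, the product of Rtn4, and inside the cell it acts on the small GTPase RhoA. Other partners bind its intracellular part: the ubiquitin ligase Traf6, which links it to NF-κB, and Maged1 (NRAGE) and Bex1, which have been tied to cell cycle exit and apoptosis.

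The relatives of the Nogo receptor are introduced by the 3′ ends of their genes, since only reads near a transcript end are counted by this assay. The last 30 bases of each gene in GENCODE M21 (GRCm38, the assembly also named mm10) are printed 5′ to 3′ on the gene's strand, with the polyadenylation signal AATAAA in capitals where a match was found. They lie at chr16:18152379-18152408 (plus strand) for Rtn4r, chr11:75267740-75267769 (plus strand) for Rtn4rl1 and chr2:84871924-84871953 (minus strand) for Rtn4rl2.
Rtn4r: atgacgtggAATAAAgagctcttttcttaa
Rtn4rl1: aataatAATAAAaattctcttggacaagaa
Rtn4rl2: acctctgactgcggtgcttagacggaagag
The signal was found in Rtn4r and Rtn4rl1, starting 21 and 24 bases before the gene's end, and not in these letters of Rtn4rl2. The annotated 3′ end of Rtn4rl2 lay 627 bases short of the end in the RefSeq table of GRCm38.p6, while those of Rtn4r and Rtn4rl1 coincided in both annotations. Lingo1, Rtn4 and Traf6, which were counted, also had no AATAAA in their last 30 bases.

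The promoters of Rtn4r and Lingo1 are shown because the levels of both were highest in the same 3 libraries, described further on. The windows run from 250 bases before to 50 bases after the annotated start (RefSeq, GRCm38.p6), 5′ to 3′ on the gene's strand, with GC boxes (GGGCGG on either strand, overlapping matches merged) in capitals. Rtn4r, on the plus strand, spans chr16:18127392-18127691, and both Lingo1 starts, on the minus strand, span chr9:56796261-56796560 and chr9:56635599-56635898.
Rtn4r: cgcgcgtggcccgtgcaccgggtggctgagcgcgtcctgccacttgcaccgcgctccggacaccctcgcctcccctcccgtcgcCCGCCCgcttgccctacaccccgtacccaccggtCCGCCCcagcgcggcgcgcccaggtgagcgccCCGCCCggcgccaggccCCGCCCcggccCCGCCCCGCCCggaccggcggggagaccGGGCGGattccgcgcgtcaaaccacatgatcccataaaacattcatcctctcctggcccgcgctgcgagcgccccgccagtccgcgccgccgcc
Lingo1, start 1: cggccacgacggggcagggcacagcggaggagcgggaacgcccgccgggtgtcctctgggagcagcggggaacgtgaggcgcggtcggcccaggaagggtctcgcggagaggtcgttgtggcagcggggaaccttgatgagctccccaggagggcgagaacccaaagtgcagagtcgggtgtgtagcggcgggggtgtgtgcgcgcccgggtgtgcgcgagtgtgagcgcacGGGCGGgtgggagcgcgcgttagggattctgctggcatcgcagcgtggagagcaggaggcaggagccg
Lingo1, start 2: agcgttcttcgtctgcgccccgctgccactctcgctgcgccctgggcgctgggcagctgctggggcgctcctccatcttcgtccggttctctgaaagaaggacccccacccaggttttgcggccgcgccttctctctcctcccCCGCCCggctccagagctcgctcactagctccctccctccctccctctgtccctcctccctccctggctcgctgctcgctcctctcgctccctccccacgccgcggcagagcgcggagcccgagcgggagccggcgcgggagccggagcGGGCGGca
The Rtn4r window held 7 GC boxes, with overlapping matches counted singly, and 47 CpG dinucleotides at a GC content of 78%. The windows of Lingo1 held 1 and 2 GC boxes, with 35 and 32 CpG dinucleotides and GC contents of 71.3% and 72.7%. Over 32851 promoters of the same length, 35.7% held at least 1 GC box, the median GC content was 52.7% and the median number of CpG dinucleotides was 7. None of these windows held the cAMP response element TGACGTCA, the EGR motif GCGTGGGCG, TATAAA or CCAAT on either strand, which were present in 1.79%, 0.612%, 13.6% and 37.4% of all promoters. A match is a description of letters and not of binding. Windows were found for 9 of the 10 members, and Rtn4rl1 had none. Bex1, also highest in those 3 libraries, had a window with 2 GC boxes, 8 CpG dinucleotides and a GC content of 61.3%. For Rtn4, the table holds 3 starts whose windows have GC contents of 62.3%, 75.3% and 39.7%. The annotation gives Rtn4 6 coding transcripts with 3 distinct ends, and the deposited counts, 1 per gene symbol, do not separate the Nogo isoforms.

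Facts of the whole series that touch the members are few. Libraries held 4316739 to 6683613 counts assigned to genes. Ngfr, which encodes p75NTR, was at 5.94 to 10.5 CPM in the 6 libraries labelled p75NTRko or 5xFAD/p75NTRko and at 0.166 to 1.94 CPM in the other 6, a direction against the label. The genotypes are therefore named as the libraries were labelled, and a 3′ tag outside a deleted part would check nothing. Whether labels were exchanged was not tested, and the sign of each comparison between receptor labels holds only if they were not. Thy1, whose promoter drives the transgenes, was at 1594 to 4014 CPM in the 6 libraries labelled as 5xFAD carriers and at 687 to 938 CPM in the other 6. Xist was high in 7 libraries (all WT, all 5xFAD/p75NTRko and p75NTRko replicate 1), while Y-linked genes were high in the other 5, so 5xFAD and WT differed in this property as well and it cannot be told apart from genotype there. All 9 hippocampal neuron markers, among them Prox1 and Neurod6, were counted in these libraries. In bulk tissue, fewer cells that express a gene and less RNA per cell cannot be told apart.

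No member passed the threshold in any comparison of genotypes. In edgeR's quasi-likelihood test over 13065 genes with Benjamini-Hochberg adjustment at 0.05, the count of members called was 0 of 9 in 5xFAD against WT (0.0536% of all genes called), in p75NTRko against WT (0% called), in the cross against 5xFAD (0.0383%), against p75NTRko (0%) and against WT (0%). The same count was 0 of 9 for the interaction of both genotypes (0.0383% of all genes called), for the receptor label averaged over the transgene (0.0842%), for the transgene averaged over the receptor label (0.0153%) and for any difference among the 4 genotypes (0.0995%). The background was itself low in every comparison, so a count of 0 among 9 genes sets the members apart from nothing. DESeq2, run as an alternative, also called 0 of 9 members in each comparison.

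At an unadjusted p below 0.05, at most 1 of the 9 members passed in any comparison. In 5xFAD against WT 0 of 9 members passed, beside 13.9% of all genes. Traf6 was the single member to pass in p75NTRko against WT, beside 11.5% of genes. Maged1 was the single member to pass in 5xFAD/p75NTRko against p75NTRko (6.59% of genes), in 5xFAD/p75NTRko against WT (9.95%) and for the averaged transgene (10.3%). None of the 9 passed in 5xFAD/p75NTRko against 5xFAD (5.08% of genes), for the interaction (9.32%), for the averaged receptor label (6.30%) or for any difference (10.4%). Counted by libraries that did not overlap between genotypes, 2 members, Maged1 among them, were separate in 5xFAD against WT (2 of 9, beside 19.6% of all genes), Traf6 in p75NTRko against WT (1 of 9, beside 16.4%) and in 5xFAD/p75NTRko against p75NTRko (1 of 9, beside 12.3%), Maged1 in 5xFAD/p75NTRko against WT (1 of 9, beside 11.5%), and no member in 5xFAD/p75NTRko against 5xFAD (0 of 9, beside 11.2%).

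The sizes of the differences were small. The median absolute log2 fold change of the 9 members was 0.08 in 5xFAD against WT, where that of all genes tested was 0.18, and 0.08 against 0.17 in p75NTRko against WT. It was 0.08 against 0.13 in 5xFAD/p75NTRko against 5xFAD, 0.11 against 0.13 in 5xFAD/p75NTRko against p75NTRko, and 0.09 against 0.16 in 5xFAD/p75NTRko against WT. Comparisons that share a control genotype share its libraries, so these values are not independent of each other. Among the genes tested, the mean levels of the members ran from the 38.8th percentile (Traf6) to the 99.7th (Rtn4). Most members were abundant: Rtn4rl1 was at the 79.0th percentile, and Bex1, Lingo1, Rhoa, Maged1 and Rtn4r were at the 84.8th to the 96.7th. The medians over all genes were not matched for level, so the smaller sizes among the members are not a like comparison.

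**Figure D1:**
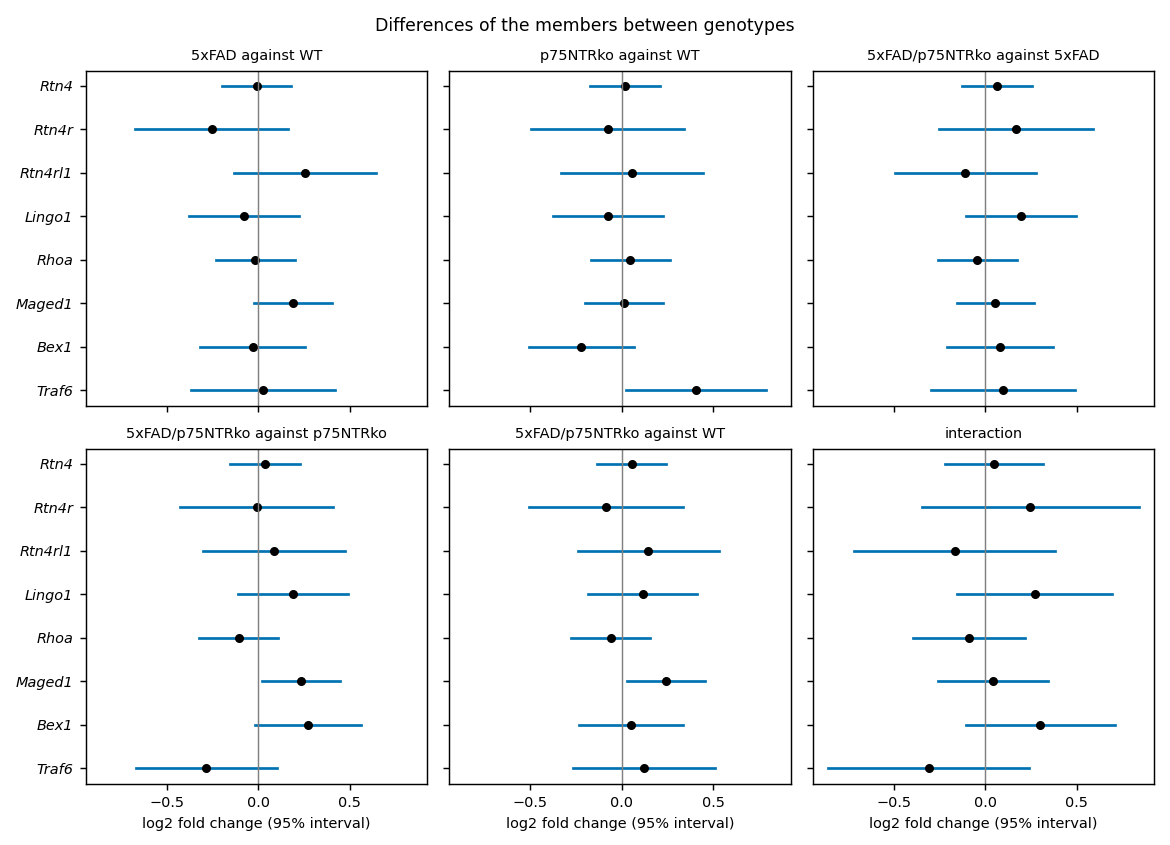
Log2 fold change (x axis) of 8 of the 9 tested members (y axis) in the 5 pairwise comparisons of genotypes and in the interaction; points are edgeR estimates, lines their 95% intervals and the grey vertical line no difference. The intervals of Rtn4 and Rhoa are among the narrowest, and those of Rtn4r, Rtn4rl1 and Traf6 are the widest.

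The ligand gene Rtn4 was the most abundant member, at the 99.7th percentile of mean level, and the steadiest. Rtn4 encodes Nogo, an endoplasmic reticulum protein of neurons and oligodendrocytes whose A form inhibits neurite growth. Its level was 1499.6 CPM ± 107 (SD, n = 3) in WT, 1489 ± 57.1 in 5xFAD, 1518 ± 32.4 in p75NTRko and 1557 ± 134 in 5xFAD/p75NTRko. The lowest of the 12 libraries was WT replicate 2 at 1404 CPM, the highest 5xFAD/p75NTRko replicate 3 at 1707 CPM, and all 4 genotypes overlapped. The 95% intervals of its fold change over the 5 pairwise comparisons lay between 0.871 and 1.19.

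Rtn4r encodes the receptor that binds Nogo, MAG and OMgp, and its levels overlapped between all 4 genotypes. In WT replicates 1, 2 and 3 it was 468, 473 and 292 CPM. It was 316, 327 and 391 CPM in 5xFAD, 379.8, 398 and 391 CPM in p75NTRko, and 282, 367 and 512 CPM in 5xFAD/p75NTRko. The highest and the lowest of all 12 values were both in 5xFAD/p75NTRko, WT was split between its replicates, and p75NTRko was the tightest genotype. Group levels were 411 ± 103, 345 ± 40.5, 389 ± 9.11 and 387 ± 116 CPM (SD, n = 3) in WT, 5xFAD, p75NTRko and 5xFAD/p75NTRko. The difference with the smallest p was 5xFAD against WT, where it was -0.25 on the log2 scale (SE 0.196, adjusted p 0.565, edgeR).

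The paralogue Rtn4rl1, a GPI-anchored receptor of the same family that binds chondroitin sulphate proteoglycans, ran the other way across the libraries. Its level was 65.8, 69.4 and 90.9 CPM in WT, 79.2, 92.8 and 97.9 CPM in 5xFAD, 84.02, 72.8 and 78.2 CPM in p75NTRko, and 96.8, 97.1 and 56.3 CPM in 5xFAD/p75NTRko. WT replicates 1 and 2 and 5xFAD/p75NTRko replicate 3 were the 3 lowest values, the same libraries in which Rtn4r was highest. In 5xFAD against WT the log2 fold change was 0.25 (SE 0.180, adjusted p 0.527, edgeR), and the groups overlapped.

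Rtn4rl1 as a share of the combined Rtn4r and Rtn4rl1 counts restated these values, since it was computed from the same counts. The share was 12.3% (exact binomial 95% interval 11.3% to 13.5%), 12.8% (11.7% to 14.0%) and 23.8% (22.0% to 25.6%) in WT replicates 1, 2 and 3. In 5xFAD/p75NTRko replicates 1, 2 and 3 it was 25.5% (23.7% to 27.4%), 20.9% (19.3% to 22.6%) and 9.90% (8.93% to 10.9%). The share was 20.03%, 22.1% and 20.03% in 5xFAD and 18.1%, 15.5% and 16.7% in p75NTRko, with little spread. Group means were 16.3% ± 6.48 in WT, 20.7% ± 1.21 in 5xFAD, 16.8% ± 1.33 in p75NTRko and 18.8% ± 8.03 in 5xFAD/p75NTRko (SD, n = 3 each). The intervals hold counting error alone, because PCR copies were not told apart by molecular identifiers.

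**Figure D2:**
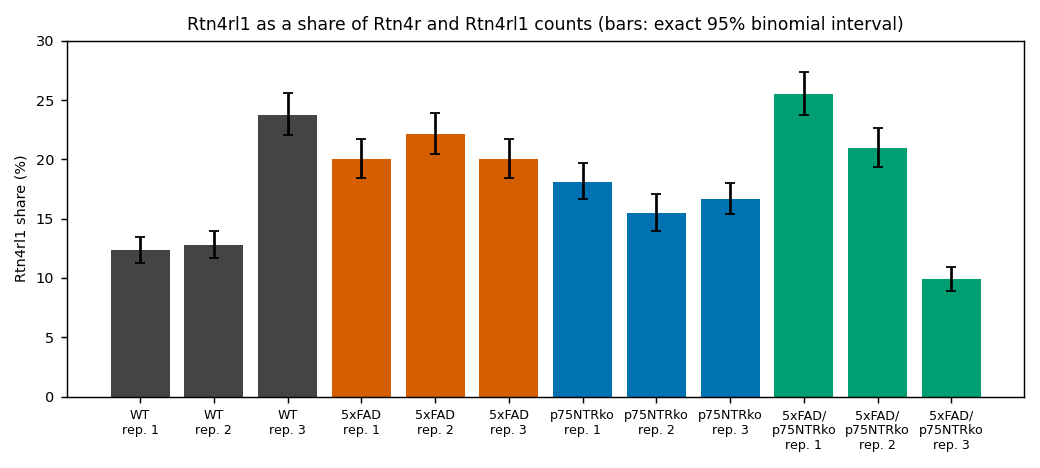
Share of Rtn4rl1 (y axis, percent of the combined Rtn4r and Rtn4rl1 counts) in each of the 12 libraries (x axis, coloured by genotype); error bars are exact 95% binomial intervals. The lowest shares, from 9.90% to 12.8%, are those of WT replicates 1 and 2 and 5xFAD/p75NTRko replicate 3, and the other libraries of these genotypes are at 20.9% to 25.5%.

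The third relative, Rtn4rl2, a receptor with binding preference for MAG, had almost no counts. A single count was assigned to it among 68625671 gene counts, in 5xFAD replicate 2, and 11 libraries were at 0. A level of 3 counts would correspond to 0.445 to 0.689 CPM in a library and to 0.0437 CPM over all libraries, which bounds what the deposited counts could hold. Of the genes in the table, 6146 had no count in any library. Per library 28.9% to 33.5% of reads fell outside any annotated feature. Whether reads from Rtn4rl2 were among them was not tested.

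Lingo1, the leucine-rich repeat co-receptor of the Nogo complex, followed the pattern of Rtn4r. It was at 166, 168 and 113 CPM in WT replicates 1, 2 and 3, at 138, 141 and 145 CPM in 5xFAD, at 135, 154 and 135 CPM in p75NTRko, and at 138, 164 and 182 CPM in 5xFAD/p75NTRko. The lowest value was WT replicate 3 and the highest 5xFAD/p75NTRko replicate 3, as WT and 5xFAD/p75NTRko had the widest spread and 5xFAD the narrowest. Group levels were 149 ± 31.4, 141 ± 3.47, 141 ± 10.8 and 161 ± 22.5 CPM (SD, n = 3). The largest pairwise estimate was 5xFAD/p75NTRko against 5xFAD, with 0.19 on the log2 scale (SE 0.14, adjusted p 0.988, edgeR).

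**Figure D3:**
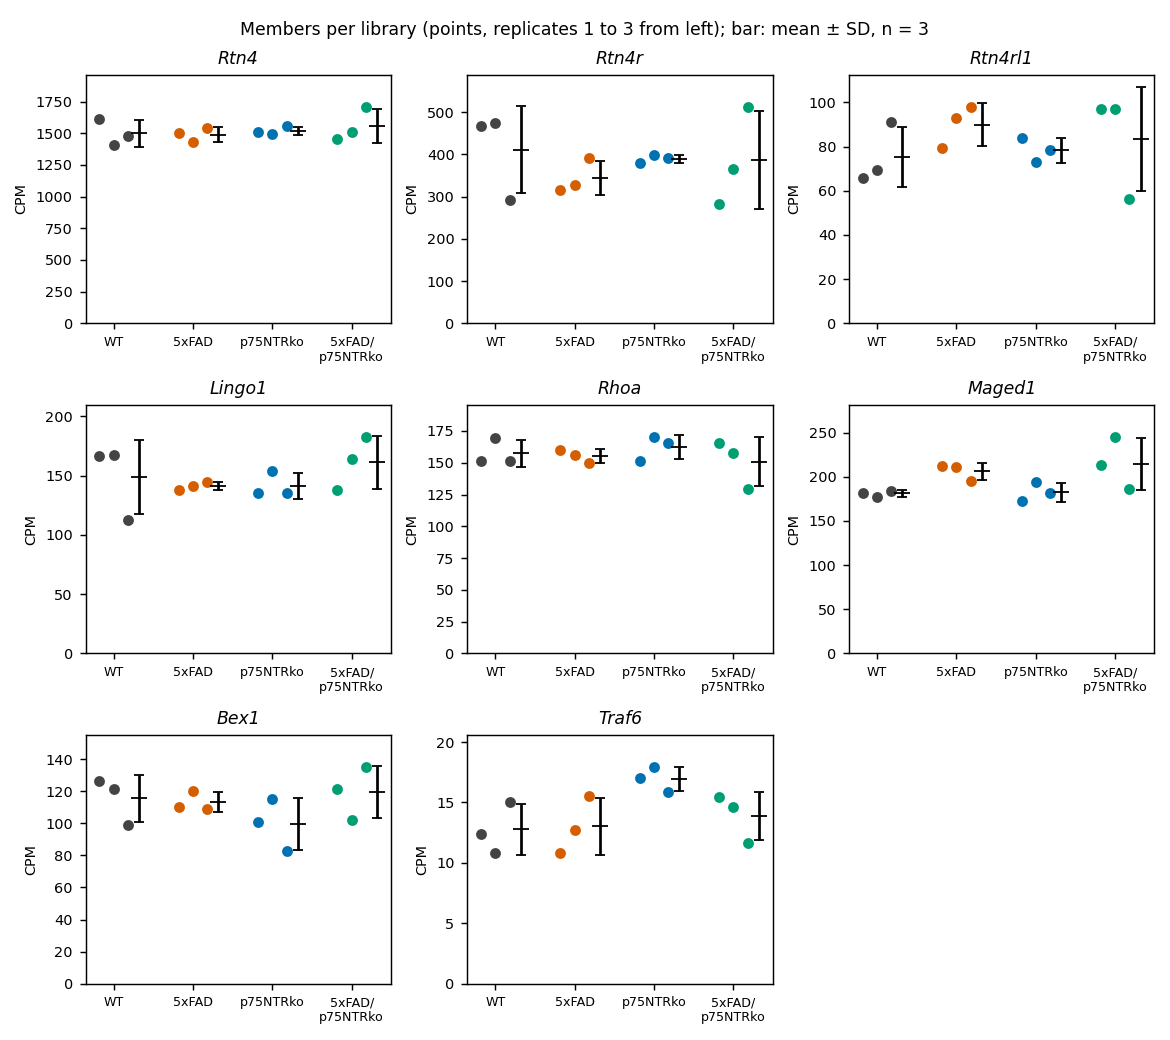
Level of 8 of the 9 tested members (y axes, CPM, starting at 0) in the 3 libraries of each genotype (x axes; points from left to right are replicates 1 to 3), with the mean and SD (n = 3) as black bars. Rtn4r spans 292 to 473 CPM within WT and 282 to 512 CPM within 5xFAD/p75NTRko, while Rtn4 stays between 1404 and 1707 CPM.

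Downstream of the receptor complex, Rhoa, the GTPase that drives growth cone collapse through its kinase ROCK, was at 157 ± 10.5 CPM in WT, 155 ± 5.33 in 5xFAD, 162 ± 9.76 in p75NTRko and 151 ± 19.2 in 5xFAD/p75NTRko (SD, n = 3). Its lowest library was 5xFAD/p75NTRko replicate 3 at 129 CPM, its highest p75NTRko replicate 2 at 170.1 CPM, and all genotypes overlapped. Over the 5 pairwise comparisons the 95% intervals of its fold change lay between 0.800 and 1.20. Activity of the GTPase, which depends on bound nucleotide and not on transcript level, is not measured by these data.

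Maged1, an adaptor of the MAGE family that binds the juxtamembrane part of p75NTR, had the smallest unadjusted p-values of the members. It was at 182, 177 and 184 CPM in WT and at 173, 194 and 181 CPM in p75NTRko. It was at 212, 212 and 195 CPM in 5xFAD and at 213, 245 and 186 CPM in 5xFAD/p75NTRko. Each library with the transgene label was above every WT library, while 5xFAD/p75NTRko replicate 3 was below p75NTRko replicate 2. Averaged over the receptor label, the log2 fold change with the transgene was 0.21 (SE 0.0703, adjusted p 0.359, edgeR), with an interval of the fold change of 1.04 to 1.28 before adjustment. It was 0.19 (SE 0.0993, adjusted p 0.411) in 5xFAD against WT and 0.23 (SE 0.0994, adjusted p 0.747) in 5xFAD/p75NTRko against p75NTRko by edgeR, and their interaction was 0.04 (SE 0.14, adjusted p 0.939).

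Maged1 and Bex1 lie on the X chromosome, so their values are also given by Xist class. Maged1 was at 173 to 245 CPM with a median of 184 CPM in the 7 libraries with high Xist, and at 181 to 212 CPM with a median of 195 CPM in the other 5. Bex1 was at 98.7 to 134.9 CPM with a median of 121.4 CPM in the former and at 82.7 to 120.4 CPM with a median of 110.2 CPM in the latter. With the Xist class as a term in the model, the log2 fold change of Maged1 in 5xFAD against WT was 0.07 (adjusted p 0.970, edgeR). Only the p75NTRko libraries can estimate that term, since each other genotype was of a single class. There Maged1 was at 173 CPM in replicate 1, with high Xist, and at 194 and 181 CPM in replicates 2 and 3. The term thus rests on few libraries and cannot separate class from genotype in 5xFAD against WT. 5xFAD/p75NTRko and WT were of the same class, and between them the log2 fold change of Maged1 without that term was 0.24 (SE 0.0992, adjusted p 0.483, edgeR).

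Bex1, a small brain-expressed protein reported to bind the receptor's intracellular part, was at 126, 122 and 98.7 CPM in WT, 110.2, 120.4 and 109 CPM in 5xFAD, 101, 115 and 82.7 CPM in p75NTRko, and 121, 102 and 135 CPM in 5xFAD/p75NTRko. All 4 genotypes overlapped, with the lowest library in p75NTRko and the highest in 5xFAD/p75NTRko. The log2 fold change of 5xFAD/p75NTRko against p75NTRko was 0.27 (SE 0.135, adjusted p 0.786, edgeR), and that of p75NTRko against WT was -0.22 (SE 0.135, adjusted p 0.542). Tceal7 overlaps Bex1 on the opposite strand, and whether counting used strand is not given in the sources used here. In the same way Eml6 overlaps Rtn4, and Tcta and Gm37401 overlap Rhoa. The pseudogene Gm37568 overlaps Rhoa on its own strand.

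Traf6, the least abundant member that was tested, had 963 counts over all libraries. It was at 12.4, 10.9 and 15.1 CPM in WT, 10.8, 12.7 and 15.5 CPM in 5xFAD, 17.03, 17.9 and 15.9 CPM in p75NTRko, and 15.5, 14.6 and 11.6 CPM in 5xFAD/p75NTRko. The 3 p75NTRko libraries were the highest of all 12 in this gene. The log2 fold change of p75NTRko against WT was 0.40 (SE 0.179, adjusted p 0.419, edgeR), and the 95% interval of its fold change was 1.02 to 1.72 before adjustment. Without the 3 libraries lowest in hippocampal markers, an alternative added after the data were seen, it was 0.16 (adjusted p 0.948, edgeR). In 5xFAD/p75NTRko against p75NTRko it was -0.28 (SE 0.179, adjusted p 0.838), and the interaction was -0.31 (SE 0.256, adjusted p 0.718).

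The 95% intervals show which changes the design could still hold. Over the 5 pairwise comparisons, the fold changes inside the intervals reached from 0.770 to 1.41 for Lingo1, 0.627 to 1.5 for Rtn4r and 0.709 to 1.56 for Rtn4rl1. They reached from 0.870 to 1.37 for Maged1, 0.703 to 1.47 for Bex1 and 0.630 to 1.72 for Traf6. A difference that missed the threshold does not show equal levels, and smaller changes than these bounds were not resolved with 3 libraries per genotype.

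The range of log2 CPM inside a single genotype reached 0.86 for Rtn4r and 0.78 for Rtn4rl1, both in 5xFAD/p75NTRko, and 0.57 for Lingo1 in WT. The SD of log2 CPM within genotypes was 0.30 for Rtn4r and 0.27 for Rtn4rl1, above the median of 0.22 over all genes tested. It was 0.09 for Rtn4, 0.11 for Maged1, 0.12 for Rhoa, 0.19 for Bex1, 0.20 for Lingo1 and 0.21 for Traf6, below it. The median was not matched for level, so this is not a like comparison.

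In 3 libraries, several members and markers of the dissected tissue stood apart together. The summed level of the 9 hippocampal neuron markers was lowest in WT replicates 1 and 2 and in 5xFAD/p75NTRko replicate 3, at 879 to 1080.0 CPM, against 1292 to 1784 CPM in the other 9 libraries. The same 3 libraries had the highest summed level of 10 neocortical layer markers, a list added after the data were seen, at 256 to 412 CPM against 175 to 247 CPM. Summed striatal markers were at 72.03 to 96.1 CPM in them and 44.0 to 83.5 CPM in the others, thalamic markers at 434 to 810 and 333 to 1001 CPM, choroid plexus markers at 358 to 3180 and 174 to 7230 CPM, and oligodendrocyte markers at 4124 to 5457 and 5048 to 7792 CPM. The highest thalamic sums were 1001 CPM in 5xFAD/p75NTRko replicate 1 and 857 CPM in WT replicate 3, the libraries with the lowest Rtn4r values (282 and 292 CPM). WT replicate 2, at 810 CPM of these markers, had 473 CPM of Rtn4r. The striatal, thalamic, choroid plexus and oligodendrocyte lists overlapped between the 3 libraries lowest in hippocampal markers and the rest.

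Between these 3 libraries and the other 9, 5 of 9 members did not overlap, beside 10.4% of all genes tested. Of the members described, these were Rtn4r, Lingo1, Bex1 and Rtn4rl1. Rtn4r was at 468 to 512 CPM in the 3 libraries and at 282 to 398 CPM in the others. Lingo1 was at 166 to 182 against 113 to 164 CPM and Bex1 at 121.7 to 134.9 against 82.7 to 121.4 CPM. Rtn4rl1 was the member lowest in them, at 56.3 to 69.4 against 72.8 to 97.9 CPM. Rtn4, Rhoa, Maged1 and Traf6 overlapped. Among the other 9 libraries, Rtn4r did not fall as hippocampal markers rose. It was 282 and 292 CPM in 5xFAD/p75NTRko replicate 1 and WT replicate 3, lowest of the 9 in these markers (1292 and 1328 CPM). It was 391 CPM in both p75NTRko replicate 3 and 5xFAD replicate 3, highest in them (1684 and 1784 CPM). The 3 libraries were set apart by their values, so no test was made, and the part of tissue makeup in the members' levels was not tested.

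**Figure D4:**
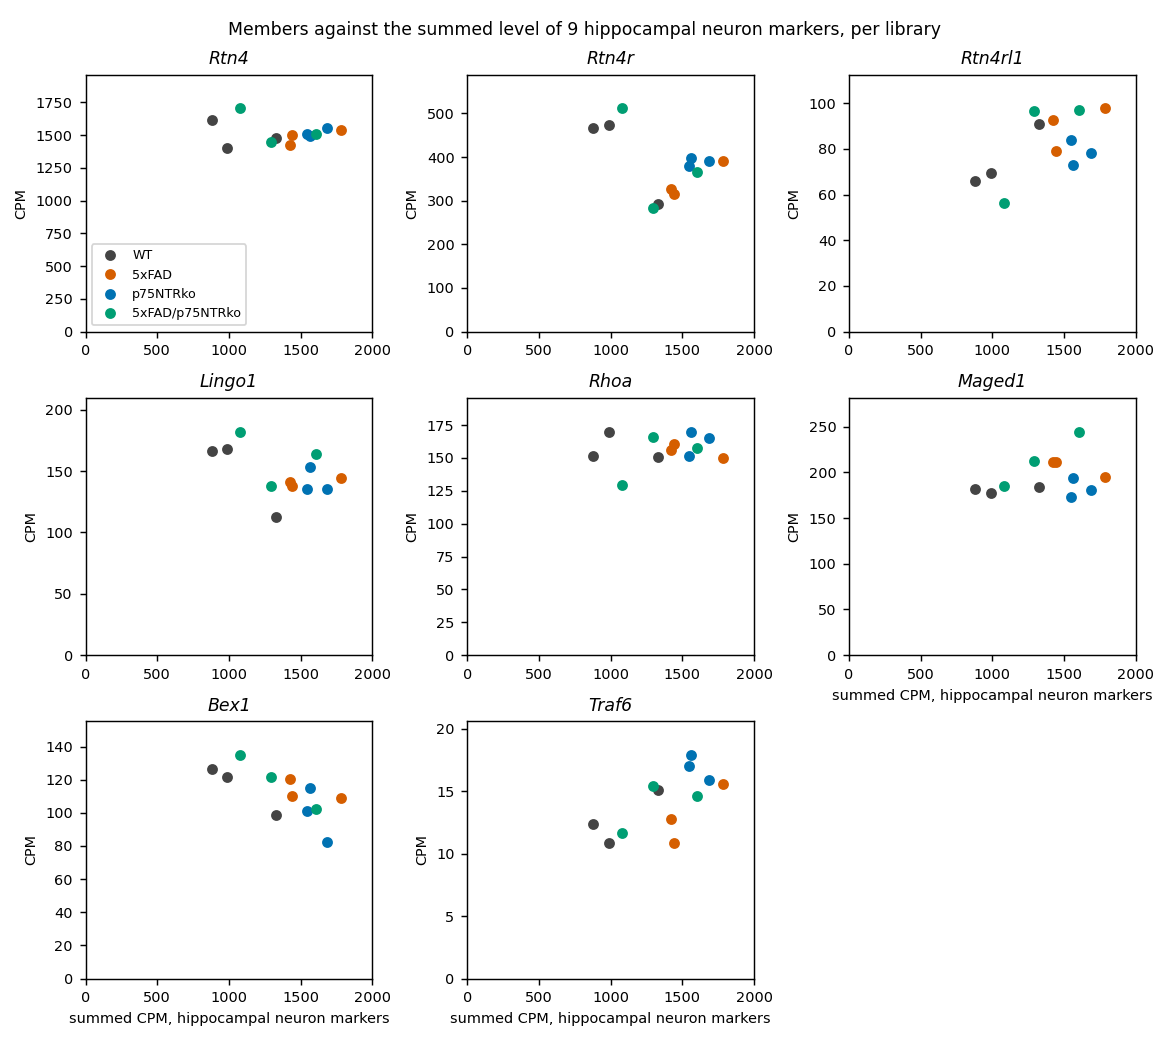
Level of 8 of the 9 tested members (y axes, CPM, starting at 0) against the summed CPM of 9 hippocampal neuron markers (x axes) in the 12 libraries, coloured by genotype. The 3 libraries at 879 to 1080.0 CPM of markers, 2 of WT and 1 of 5xFAD/p75NTRko, hold the highest Rtn4r values (468 to 512 CPM) and the lowest Rtn4rl1 values (56.3 to 69.4 CPM). Among the other 9, Rtn4r is lowest (282 and 292 CPM) at the lowest marker sums (1292 and 1328 CPM).

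Leaving these 3 libraries out left WT with a single library, assumed to vary like the other genotypes. The log2 fold change of Rtn4r in 5xFAD against WT was then 0.24 (adjusted p 0.721, edgeR), against -0.25 with all libraries, and that in p75NTRko against WT was 0.42 (adjusted p 0.559). Lingo1 was at 0.33 (adjusted p 0.510) in 5xFAD against WT, against -0.08 with all libraries. Neither gene passed the threshold in either fit. The WT library kept, WT replicate 3, was at 113 CPM for Lingo1, the lowest of all 12, and at 292 CPM for Rtn4r. Its summed thalamic markers were at 857 CPM. With WT replicate 3 left out instead, the log2 fold changes in 5xFAD against WT were -0.46 for Rtn4r and -0.25 for Lingo1. The sign of both differences thus depended on which WT libraries were kept.

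Relations between members were computed over all 12 libraries and over the 9 without the 3 lowest in hippocampal markers. Over the 12, 2 of 36 pairs passed a two-sided permutation test of Pearson's r with Benjamini-Hochberg adjustment, Lingo1 with Rtn4r (permutation p adjusted to 0.0414) and Rtn4r with Rtn4rl1 (0.0455), and 0 pairs passed that of Spearman's coefficient. Since the 3 libraries did not overlap the other 9 in Lingo1, Rtn4r and Rtn4rl1, the coefficients are given over the 9 libraries. Among these 36 pairs, 0 passed an exact permutation test with Benjamini-Hochberg adjustment, and 2 had an unadjusted p below 0.05. For Lingo1 and Rtn4r, Pearson's r was 0.55 and Spearman's coefficient 0.42 (exact two-sided permutation p 0.126 and 0.270, adjusted 0.687 and 0.747), and r was 0.36 without the 2 libraries farthest from the median of Lingo1. For Rtn4r and Rtn4rl1, r was -0.38 and Spearman's coefficient -0.27 (exact permutation p 0.303 and 0.493, adjusted 0.791 and 0.789), and r was -0.14 without 2 libraries. The pairs below 0.05 before adjustment were Rtn4 with Bex1, at r of -0.74 (Spearman's coefficient -0.67, exact permutation p 0.0216, adjusted 0.687), and Rtn4 with Rtn4r, at r of 0.68 (Spearman's coefficient 0.60, exact permutation p 0.0460, adjusted 0.687).

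The genes whose log2 CPM was most like each member over all 12 libraries were sought among 13064 genes, as a description that includes the separation of the 3 libraries. For Rtn4r they were Pde4a (r of 0.97) and Socs7 (0.96), for Rtn4rl1 Klf13 (0.96) and Zfp280d (0.94), and for Lingo1 Sv2b (0.94) and Slc6a7 (0.92). For Maged1 they were Ppp1r21 (0.95) and Ssx2ip (0.91), and for Traf6 Commd10 (0.91) and Prtg (0.91). Rtn4 was nearest to Sec14l1 (0.90) and Sun1 (0.87), Bex1 to Lrrc24 (0.89) and Pcsk4 (0.88), and Rhoa to Cxcr4 (0.86) and Dis3l (0.86). Some of these partners were low in level, such as Pcsk4 at a mean of 2.12 CPM and Cxcr4 at 3.52 CPM. The limit of 3 counts corresponds to 0.445 to 0.689 CPM in a library.

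The wider pathway was read from 4 lists of 88 genes in all: other Nogo ligands and receptors, the reticulon family, small GTPase signalling genes, and further adaptors and effectors of p75NTR. Of these, 87 were in the table (Diaph1 was not analysed here) and 81 were tested. None of the 81 was called by edgeR in any of the 9 comparisons, at adjusted p-values down to 0.116, beside the background shares given above. At an unadjusted p below 0.05, 13 of 81 passed in 5xFAD against WT (8 higher, 5 lower), or 16.0% beside 13.9% of all genes. In p75NTRko against WT 12 passed (5 higher, 7 lower), or 14.8% beside 11.5%. In 5xFAD/p75NTRko, 4 passed against 5xFAD (2 and 2), or 4.94% beside 5.08%, 4 against p75NTRko (1 and 3), or 4.94% beside 6.59%, and 11 against WT (7 and 4), or 13.6% beside 9.95%. The median log2 fold changes of the 81 genes were -0.01, 0.02, 0.03, 0.05 and 0.02 in that order, beside medians of -0.00 to 0.01 over all genes tested.

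**Figure D5:**
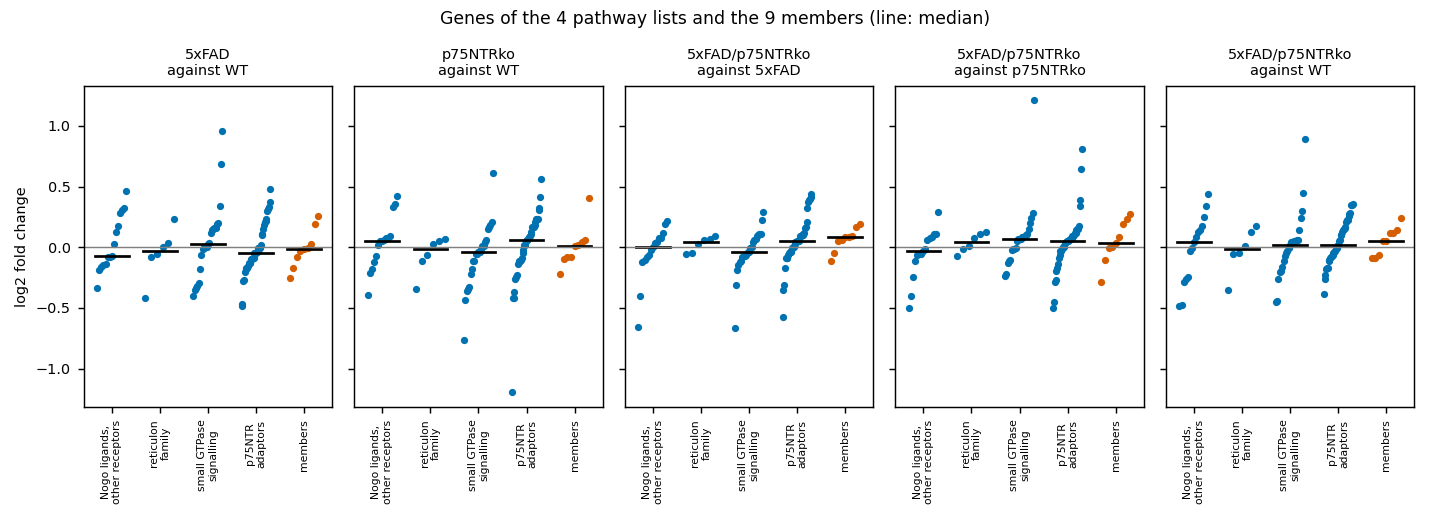
Log2 fold change (y axis) of the tested genes of the 4 pathway lists (blue) and of the 9 members (orange) in the 5 pairwise comparisons; each point is a gene and black lines are medians. The medians of the lists lie between -0.07 and 0.07 and those of the members between -0.02 and 0.08.

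Among the Nogo ligands, Mag, a myelin-associated glycoprotein of oligodendrocytes that binds Rtn4r and Rtn4rl2, was at 92.4, 85.2 and 79.8 CPM in WT and at 90.9, 69.6 and 82.35 CPM in 5xFAD. It was at 87.9, 77.8 and 94.9 CPM in p75NTRko and at 70.5, 60.5 and 53.04 CPM in 5xFAD/p75NTRko, which overlapped 5xFAD alone. In the cross against p75NTRko, the log2 fold change of Mag was -0.50 (SE 0.128, adjusted p 0.457, edgeR). In the cross against WT it was -0.48 (adjusted p 0.325), and in the cross against 5xFAD -0.40 (adjusted p 0.715). Summed levels of 11 oligodendrocyte markers were at 4124 to 7184 CPM in WT, 5410.4 to 7770.2 CPM in 5xFAD, 6434 to 7792 CPM in p75NTRko and 4131 to 5372 CPM in 5xFAD/p75NTRko. The cross lay below 5xFAD and p75NTRko and inside the range of WT. Their part in the Mag values was not tested. Olfm1, an extracellular protein that binds Rtn4r, was at 944 ± 56.9 CPM in WT, 1179.8 ± 107 CPM in 5xFAD, 1206 ± 26.3 CPM in p75NTRko and 1119 ± 119 CPM in 5xFAD/p75NTRko (SD, n = 3), lowest in WT. Its log2 difference from WT was 0.32 in 5xFAD (SE 0.0978, adjusted p 0.236, edgeR), 0.35 in p75NTRko (SE 0.0978, adjusted p 0.263) and 0.25 in the cross (SE 0.0977, adjusted p 0.480). The interaction was -0.43 (SE 0.138, adjusted p 0.402, edgeR).

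Among the small GTPase signalling genes, Arhgap5, a GTPase-activating protein, was the gene nearest to the threshold. It was at 23.4, 26.25 and 26.7 CPM in WT, 37.1, 42.75 and 43.1 CPM in 5xFAD, 20.7, 22.5 and 24.05 CPM in p75NTRko and 32.8, 25.9 and 18.8 CPM in 5xFAD/p75NTRko. The 3 5xFAD libraries were above all others. Its log2 fold change was 0.69 (SE 0.165, adjusted p 0.150, edgeR) in 5xFAD against WT and -0.66 (SE 0.165, adjusted p 0.389) in 5xFAD/p75NTRko against 5xFAD. DESeq2 placed it past the threshold in 5xFAD against WT (adjusted p 0.0353), as did edgeR without 5xFAD/p75NTRko replicate 3 (adjusted p 0.0428). Both comparisons set libraries of different Xist class against each other. With that class as a term, which only the p75NTRko libraries can estimate, the log2 fold changes of Arhgap5 were 0.52 (adjusted p 0.949, edgeR) and -0.50 (adjusted p 0.999). Rhoc, a close relative of Rhoa, was at 61.0 ± 6.62 CPM in WT, 46.2 ± 3.02 CPM in 5xFAD, 52.5 ± 3.82 CPM in p75NTRko and 44.9 ± 3.99 CPM in 5xFAD/p75NTRko (SD, n = 3), highest in WT. Its log2 difference from WT was -0.40 in 5xFAD (SE 0.115, adjusted p 0.222, edgeR), -0.22 in p75NTRko (SE 0.114, adjusted p 0.468) and -0.44 in the cross (SE 0.114, adjusted p 0.325).

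Among the further adaptors, Ndn, or necdin, a MAGE protein related to Maged1 that binds p75NTR, was at 139, 153 and 81.6 CPM in p75NTRko and at 79.8, 78.3 and 94.2 CPM in WT. The first 2 p75NTRko libraries were above every WT library and the third was inside the range of WT. The log2 fold change was 0.56 (adjusted p 0.342, edgeR). Mapk9, which encodes the kinase JNK2, was at 194 ± 19.03, 160.3 ± 3.64, 162 ± 3.67 and 179 ± 29.9 CPM (SD, n = 3) in WT, 5xFAD, p75NTRko and 5xFAD/p75NTRko. Its 3 highest libraries were WT replicates 1 and 2 and 5xFAD/p75NTRko replicate 3, at 212, 197 and 214 CPM. These were the 3 libraries lowest in hippocampal markers. WT replicate 3 was at 174 CPM, and 5xFAD/p75NTRko replicates 1 and 2 were at 163 and 162 CPM. The interaction of Mapk9, with these libraries included, was 0.42 log2 units (adjusted p 0.467, edgeR).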

How the data were processed

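RNA of mouse hippocampus was extracted with Trizol and made into QuantSeq 3′ libraries, per the labels' protocols. Values in the deposited table are raw counts, with a row for each gene symbol and a column for each library, and no scaling by the authors is recorded. FastQC, HISAT2, SAMtools, HTSeq, edgeR and the build mm10 are named in the submitters' processing notes; versions, the annotation and the strand setting are not given in the sources used here. The 5 summary lines at the foot of the table were left out, and 32.2% to 38.5% of reads were assigned to genes.

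The test was that of edgeR 4.0.16 in R 4.3.3: filterByExpr by genotype, TMM scaling (factors 0.975 to 1.03), a quasi-likelihood fit with a mean per genotype over all 12 libraries, 9 comparisons, and Benjamini-Hochberg adjustment over 13065 genes at 0.05. CPM used TMM-scaled totals, log2 CPM a prior count of 2, and 3 counts were taken as the limit of measurement. The procedure was also run on simulated counts with the same relative spread for all genes. Differences in tissue makeup or Xist class were not simulated, so that run does not cover them. No pair of libraries agreed within counting noise (lowest chi-square/df 3.03). Alternatives were DESeq2 1.42.0, RLE scaling, no filter, only the compared genotypes, a replicate block, the Xist class as a term, leaving out genes of X and Y, leaving out each library in turn, leaving out 3 libraries together, and a smaller prior count for log2 CPM.

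The members and the gene lists were chosen with earlier results of these data known. A member is not reported here, and the others are named; of the pathway lists, the rule named the genes called in any comparison and the 2 with the smallest p in each of 6 comparisons, a few of which are described by value; for each tested member, the 2 genes with the highest r. Figures used Python 3.11.15 and matplotlib 3.10.9.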

Additional observations from a re-analysis of the deposited data

How the results depend on the processing

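Of 1566 values of the members under 20 settings, 0 were past the threshold, and 117 changed sign while past it neither before nor after. The number of members called was 0 under every setting run; without genes on X and Y, Maged1 and Bex1 had no value. Counts over all genes depended on the processing, and the cause was not tested. In the order 5xFAD then p75NTRko against WT, the cross against 5xFAD, p75NTRko and WT, interaction, averaged receptor label, averaged transgene and any difference, they were 7, 0, 5, 0, 0, 5, 11, 2 and 13 by edgeR as reported. They were 102, 54, 22, 20, 31, 25, 39, 72 and 180 by DESeq2, and 44, 46, 14, 6, 16, 15, 21, 17 and 81 with no filter on low counts. With only the compared genotypes in the fit they were 19 in 5xFAD against WT, 21 in p75NTRko against WT, 9 in the cross against 5xFAD and 1 in the cross against WT. With the Xist class as a term they were 0, 1, 0 and 1 in the first 4, then 1 for the interaction, 3 for the averaged receptor label and 4 for any difference. Without genes on X and Y they were 1 in 5xFAD against WT, 1 in 5xFAD/p75NTRko against 5xFAD, 0 for the interaction and 7 for any difference. Without the 3 libraries lowest in hippocampal markers, chosen after seeing the data, they were 4 in 5xFAD against WT, 2 in p75NTRko against WT, 3 in 5xFAD/p75NTRko against p75NTRko, 1 for the interaction, 7 for the averaged receptor label, 34 for the averaged transgene and 85 for any difference. RLE scaling moved none of them by more than 1.5 times.

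Leaving out each library in turn gave, in the same order, 1 to 57, 0 to 26, 0 to 7, 0 to 25, 0 to 4, 3 to 20, 1 to 14, 2 to 58 and 1 to 53 genes. The highest counts came without WT replicate 3 (57, 26, 4 and 14), without 5xFAD/p75NTRko replicate 1 (7, 25, 4, 58 and 53), without p75NTRko replicate 3 (4 against WT for the cross) and without 5xFAD/p75NTRko replicate 2 (20). Where a genotype was left with 1 library, it was assumed to vary like the others.

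Replicate numbers did not pair the libraries: deviations of same-numbered libraries correlated at -0.42 to 0.14 over 18 pairs, those of other numbers at -0.22 to 0.34 over 36, and 3 of 12 libraries correlated best with their own number. With the replicate block the counts were 1 in 5xFAD against WT, 0 in 5xFAD/p75NTRko against 5xFAD, 3 for the interaction, 4 for the averaged receptor label and 4 for any difference.

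Among the named pathway genes, 8 values, all of Arhgap5, were past the threshold under an alternative alone. They include any difference among genotypes by DESeq2 (adjusted p 0.00227) and the averaged transgene by edgeR without 5xFAD/p75NTRko replicate 3 (adjusted p 0.0304). With 3 libraries per genotype, the intervals of the members reached fold changes of 0.627 (Rtn4r) and 1.72 (Traf6) over the pairwise comparisons, and Rtn4rl2 had 1 count in all.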
